A study of Homo sapiens with 6 samples.

Results

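The 41 genes described here copy DNA or govern the entry of a cell into S phase, and were taken by name from the 60664 genes of the deposited table. They were followed in the human ovarian carcinoma line SKOV3, which is kept in culture as an established line, in 3 libraries from cells with a short hairpin RNA against JUP (shJUP 1 to 3, labelled as a JUP knockdown) and 3 from cells with a control hairpin (shNC 1 to 3, labelled as wild type). JUP encodes plakoglobin, a protein of desmosomes and adherens junctions, and the series asks what its loss does to an ovarian cancer cell. The labels call the replicates independent and biological, and do not say which hairpin sequences were used, how many, or whether the cells were a pool or a clone. No drug, serum or time treatment is named for either group. An effect of the hairpin other than loss of JUP cannot be told apart from an effect of JUP in this design.

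Replication starts from origins that are licensed in G1. The origin recognition complex, CDC6 and CDT1 load the ring-shaped MCM2-7 helicase onto DNA, and in S phase CDC45, the GINS complex and MCM10 turn it on. DNA polymerases then copy the DNA, tethered to it by the sliding clamp PCNA, which the RFC complex loads. Ribonucleotide reductase, thymidylate synthase and thymidine kinase supply the building blocks. Most of these genes are transcribed at the G1/S boundary by E2F factors, which cyclin E with its kinase CDK2 helps to release from RB proteins. Their RNA is therefore widely read as a mark of cycling cells, and in RNA from a whole culture, fewer cells in S phase and less RNA per cell cannot be told apart.

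Promoters were read first, because they show what these genes share beyond their names. RefSeq promoters (GRCh38.p14, 250 bases before to 50 after the start) were matched for 37 of the 41 genes, with 47 promoters in all. The E2F word was searched on both strands as TTTCCCGC, TTTCGCGC, TTTGCCGC or TTTGGCGC, and stood in a promoter of 19 of the 37 genes (51.4%), against 4.0% of all 27305 genes in the table. Of the 33 mitosis and G2/M genes with a promoter, 3 held it (9.1%). The CHR word TTTGAA, a mark of mitotic promoters, was in 1 of the 37 replication genes and in 25 of the 33 mitotic ones, against 18.2% of all genes. CCAAT stood in 22 of the 37 (59.5%), against 39.7% of all genes and 25 of the 33 mitotic ones (75.8%). The replication promoters had a median GC content of 67.7%, against 58.7% over all promoters. The part of GC content in these shares was not tested.

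The 250 bases before the start are shown for 6 genes to which the results return: MCM6, RFC5 and CCNE1, with the smallest p-values, CDC6, called when library numbers were paired, RRM2, with the widest range over the libraries, and E2F1, the factor itself. They are printed from 5′ to 3′ on the gene's strand, with E2F words and CCAAT boxes of either strand in capitals.
MCM6 (chr2:135876444-135876693, minus strand): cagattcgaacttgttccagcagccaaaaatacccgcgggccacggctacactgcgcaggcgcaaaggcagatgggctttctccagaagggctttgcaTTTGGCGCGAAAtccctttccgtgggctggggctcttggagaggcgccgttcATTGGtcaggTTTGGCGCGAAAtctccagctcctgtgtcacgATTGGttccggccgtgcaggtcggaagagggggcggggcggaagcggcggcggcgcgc
E2F1 (chr20:33686386-33686635, minus strand): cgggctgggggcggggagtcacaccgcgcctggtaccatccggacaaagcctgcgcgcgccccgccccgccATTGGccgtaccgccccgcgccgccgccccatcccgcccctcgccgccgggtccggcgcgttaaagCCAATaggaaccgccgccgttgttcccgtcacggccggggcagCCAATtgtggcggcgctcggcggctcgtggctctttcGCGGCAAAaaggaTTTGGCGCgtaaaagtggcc
CDC6 (chr17:40287629-40287878, plus strand): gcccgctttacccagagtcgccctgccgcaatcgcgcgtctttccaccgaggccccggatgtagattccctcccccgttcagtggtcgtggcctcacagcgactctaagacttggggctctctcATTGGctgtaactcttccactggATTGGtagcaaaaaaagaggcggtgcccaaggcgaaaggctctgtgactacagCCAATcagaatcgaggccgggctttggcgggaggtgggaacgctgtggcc
RRM2 (chr2:10122489-10122738, plus strand): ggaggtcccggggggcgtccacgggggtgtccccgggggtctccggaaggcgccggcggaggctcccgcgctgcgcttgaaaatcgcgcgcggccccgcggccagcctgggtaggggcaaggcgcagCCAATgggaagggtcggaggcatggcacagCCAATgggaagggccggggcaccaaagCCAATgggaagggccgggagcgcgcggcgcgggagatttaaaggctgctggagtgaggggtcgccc
RFC5 (chr12:118016453-118016702, plus strand): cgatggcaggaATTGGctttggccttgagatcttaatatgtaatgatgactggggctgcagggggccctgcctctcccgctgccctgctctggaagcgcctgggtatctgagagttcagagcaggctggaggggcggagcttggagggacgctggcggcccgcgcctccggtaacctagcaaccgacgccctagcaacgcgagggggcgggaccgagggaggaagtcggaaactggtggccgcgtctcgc
CCNE1 (chr19:29811741-29811990, plus strand): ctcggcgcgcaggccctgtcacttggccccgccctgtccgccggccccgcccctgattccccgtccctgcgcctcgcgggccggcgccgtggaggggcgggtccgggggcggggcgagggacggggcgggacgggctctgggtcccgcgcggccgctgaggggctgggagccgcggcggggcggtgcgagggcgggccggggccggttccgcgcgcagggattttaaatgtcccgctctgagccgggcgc
MCM6 carried 2 pairs of overlapping E2F words, each with TTTGGCGC on the gene's strand and TTTCGCGC on the other, at 152 to 141 and at 90 to 79 bases before the start, and CCAAT boxes at 100 to 96 and 58 to 54. E2F1 carried 2 words just before its own start, at 33 to 26 and 20 to 13 bases. RRM2 (1 of its 2 listed starts), CDC6 and E2F1 each held 3 CCAAT boxes in the stretch printed. RFC5 held 1, and CCNE1 neither word. CDC6 is counted above with 1 E2F word, which did not lie within the stretch printed and so is not marked. A match is a description of letters and not a measured binding site, and no match says nothing of whether a factor binds.

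Counts in the table summed to between 17456121 and 19279514 per library, and levels are given as CPM, the counts of a gene scaled to the size of its library after TMM correction. JUP stood at 39.9, 93.6 and 24.6 CPM (shJUP 1 to 3) against 104, 133 and 101 CPM (shNC 1 to 3), so each shJUP library lay below each control, but shJUP 2 only narrowly. The gap (log2 -1.10, SE 0.44, edgeR adjusted p = 0.47) was not called by the quasi-likelihood test of edgeR with Benjamini-Hochberg adjustment, nor by DESeq2 (adjusted p = 0.18). DESeq2 did call JUP lower with the library number as a block (adjusted p = 0.047) and with shJUP 2 and shNC 2 left out (log2 -1.66, adjusted p = 2.5e-10). Of 12 ovarian carcinoma markers 9 reached 1 CPM in some library, led by ERBB2 at up to 6907 CPM, while MUC16, WFDC2 and MSLN stayed below 1 CPM. CD68 alone of 10 leukocyte markers reached 1 CPM (up to 35.8). The summed level of 9 fibroblast markers ranged from 11.8 to 269 CPM in shJUP and from 44.3 to 499.9 CPM in shNC. Of the 9, 6 reached 1 CPM, each highest in shNC 2. They were COL1A1 (up to 401), COL3A1 (46.0), COL1A2 (26.1), LUM (15.5), DCN (7.54) and ACTA2 (2.71). PDGFRB, THY1 and FAP stayed below 1 CPM. Of 7 endothelial markers 4 (KDR at up to 10.8 CPM) and of 5 mesothelial markers 5 (LRRN4 at up to 36.7 CPM) reached 1 CPM.

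All 41 genes were expressed well enough to be tested, and as a group they lay slightly higher in shJUP, without any of them passing the test. The edgeR test called 0 of the 41, and also 0 of all 15867 genes tested (0%). DESeq2 called 0 of the 41 as well, where it called 1.26% of all genes. At an unadjusted p under 0.05 edgeR held 3 of the 41 (7.32%), all higher, against 10% of all genes in both directions together. Of the 15867 genes, 821 were higher and 773 lower at that p. The fold change was above 0 for 31 of the 41 (75.6%), against 48.6% of all genes, with a median log2 fold change of 0.13 against -0.0095 over all genes. Single genes ranged from -0.22 for E2F2 to 0.66 for CCNE1. The groups did not overlap for 3 genes: RFC5 and CCNE1 were higher in every shJUP library (4.88% of the members, against 8.39% of all genes) and RFC1 was lower (2.44%, against 8.65%). These shares are below those of all genes.

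**Figure D1:**
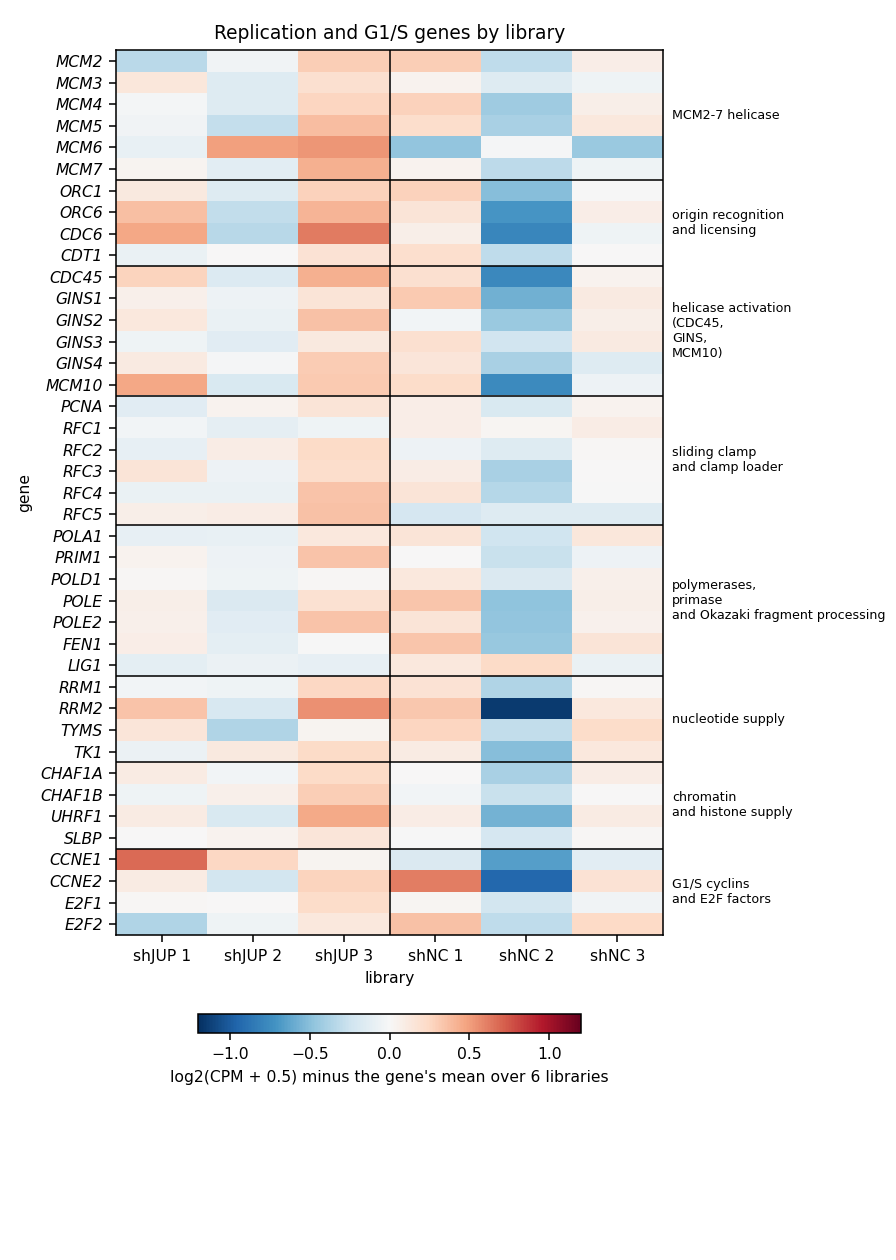
Rows are the 41 genes by role, columns the 6 libraries, and colour is log2(CPM + 0.5) minus the mean of the gene over the libraries (red above, blue below). The shNC 2 column is blue for nearly every gene and the shJUP 3 column is red for most, whereas the other control libraries are mostly pale red.

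The level of these genes followed the library more closely than the group. The library shNC 2 was the lowest of the 6 for 34 of the 41 genes (82.9%), against 25.9% of all genes tested. The exceptions were MCM2, MCM6, RFC1, RFC5, LIG1, TYMS and E2F2. The library shJUP 3 was the highest for 25 of the 41, against 19.3% of all genes. The median deviation from the mean over the 6 libraries was 0.046, -0.076 and 0.25 in shJUP 1, 2 and 3 and 0.14, -0.36 and 0.047 in shNC 1, 2 and 3 on the log2 scale. Over all genes tested this median lay between -0.0048 and 0.0094. The number-2 library was the lowest of each group, and the range within each group was wider than the distance between the groups. The libraries of a typical member were no further apart than those of a typical gene, with a median ratio of 1.62 from the highest to the lowest library against 1.63 over all genes, but the members shared their low library. Relative to the mean of the other controls, shNC 2 held 0.7296 of the level in the median gene (range 0.377 for CCNE2 to 1.36 for MCM6), where the median over all genes was 0.991. The same library had the highest mitochondrial share of counts (5.79%, against 3.63% to 5.03% in the others), the highest share in its 10 most abundant genes (7.8%, against 5.23% to 6.8%) and the highest summed fibroblast markers. Their part in the lower replication genes was not tested.

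Compared within each library number, the median log2 ratio of shJUP to shNC was -0.096, 0.31 and 0.22 for number 1, 2 and 3. For all genes tested it was -0.021, -0.0030 and -0.0012. The ratio was above 0 for 15 of the 41 genes in number 1, 38 in number 2 and 34 in number 3. Number 2, with the least JUP loss, had the widest gap. Number 3, with the greatest JUP loss, had a gap of 0.22, and number 1 had most genes on the other side. Whether the gap is related to JUP loss was not tested, and the pairing by number is uncertain. In all 3 numbers 15 genes were higher in shJUP (36.6%, against 21.3% of all genes) and 3 were lower (7.32%, against 22.5%). Without shNC 2, 20 of the 41 lay above 0 and the median was -0.0012. Without both number-2 libraries 25 lay above 0, with a median of 0.081. So with the single control library shNC 2 left out the excess of genes above 0 was gone, and with both number-2 libraries left out a smaller one remained. Of the 31 genes above 0, 11 turned below 0 without shNC 2 alone, 16 were smaller by over 1.5 times, and CCNE1, MCM6, RFC2 and RFC5 moved by less.

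**Figure D2:**
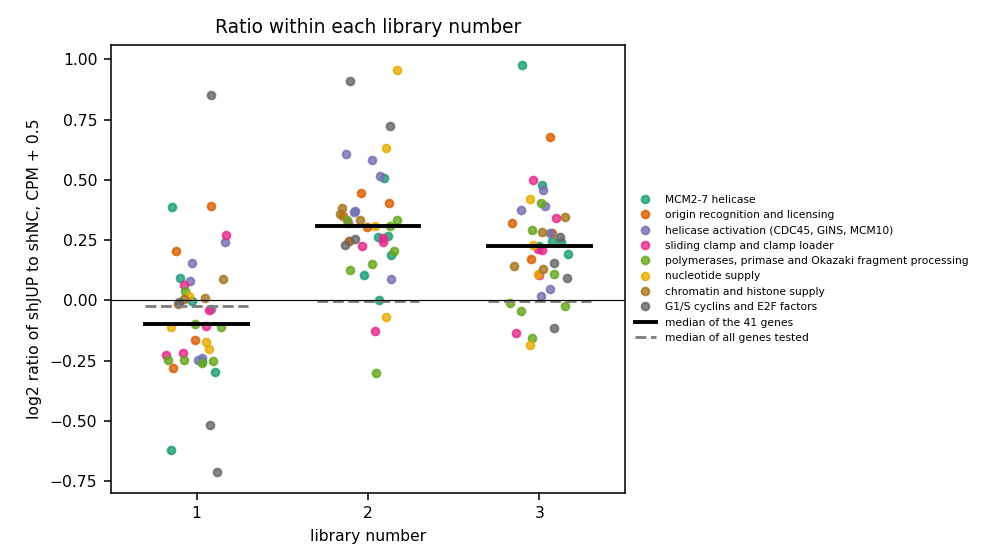
Each point is 1 of the 41 genes, placed by its log2 ratio of shJUP to shNC (CPM + 0.5) within library number 1, 2 or 3 and coloured by role; the black bar is the median of the 41 genes and the dashed bar that of all genes tested. The points centre below 0 in number 1 and above 0 in numbers 2 and 3.

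In the MCM2-7 helicase, 5 of 6 subunits lay above 0, and MCM3, MCM4, MCM5 and MCM7 were lowest in shNC 2, while MCM6 had another order of libraries. MCM6 stood at 109, 163 and 167 CPM (shJUP 1 to 3) against 82.96, 114 and 84.6 CPM (shNC 1 to 3), or a mean of 146 ± 32.5 CPM with the JUP hairpin and 93.96 ± 17.7 CPM without (SD, n = 3). Its lowest shJUP value lay under the highest control, shNC 2, and its shJUP value exceeded the control within each number, by log2 0.39, 0.51 and 0.98. The fold change was log2 0.64, SE 0.20, edgeR adjusted p = 0.42 (unadjusted 0.016). DESeq2 with the library number as a block called it (adjusted p = 0.0027, where 4.36% of all genes were called, 1.93% as higher), and so did DESeq2 once shJUP 2 and shNC 2 were set aside (adjusted p = 0.018, 4.23% of all genes called). MCM6 did not share the dip of shNC 2, where it held 1.36 times the mean of the other controls. MCM4, by contrast, was at 239, 217 and 290.1 CPM in the shJUP libraries against 294, 180.4 and 254 CPM in the controls and MCM5 at 92.5, 78.04 and 123 CPM in the shJUP libraries against 110.1, 72.5 and 104 CPM in the controls. Both followed the library, lowest in shNC 2, and their fold changes (log2 0.035, SE 0.20 and log2 0.038, SE 0.22) were smaller than their SE. MCM2 was at 97.3, 119 and 151 CPM in the shJUP libraries against 149.8, 99.1 and 129 CPM in the controls (log2 -0.042, SE 0.20), lowest in shJUP 1. MCM3 (163, 134 and 170.1 CPM in the shJUP libraries against 153, 134 and 144 CPM in the controls; log2 0.12, SE 0.12) and MCM7 (109, 97.5 and 143 CPM in the shJUP libraries against 109.7, 85.5 and 103 CPM in the controls; log2 0.23, SE 0.17) overlapped between groups. In cells the 6 subunits form 1 ring in equal numbers. Per kilobase of merged exon their control levels ran from 13.01 ± 2.75 CPM per kb for MCM5 to 39.3 ± 2.70 for MCM3 (SD, n = 3). All annotated exons of a gene, merged, measured 7.34 kb for MCM5 and 3.65 kb for MCM3, whose control means were 95.4 and 144 CPM. The range per kilobase therefore depends on the annotation, and says little of unequal RNA.

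Among the genes that license origins, CDC6, the ATPase that joins the origin complex to load the helicase, stood furthest from 0. Its level was 144, 82.5 and 161 CPM (shJUP 1 to 3) against 109.7, 60.5 and 101 CPM (shNC 1 to 3). The number-2 library was the lowest of each group, and within every number the shJUP library was higher, by a ratio of 1.31 (95% counting interval 1.24 to 1.39) in number 1, 1.37 (95% counting interval 1.26 to 1.47) in number 2 and 1.604 (95% counting interval 1.51 to 1.70) in number 3. Over all libraries (log2 0.52, SE 0.30, edgeR adjusted p = 0.60) the groups overlapped, and the fold change was 0.30 without shNC 2 and 0.33 without shJUP 3. DESeq2 called CDC6 higher with the block (adjusted p = 0.0035) and with shJUP 2 and shNC 2 set aside (adjusted p = 0.0051). MCM6 and CDC6 were the 2 members called in these DESeq2 fits. They were 4.88% of the 41 genes, near the share of all genes called in either direction (4.36% with the block, 4.23% without the number-2 libraries). Both were higher. Of all genes, 1.93% were called higher with the block. Without the number-2 libraries DESeq2 called 312 of the 15867 genes higher and 359 lower. Whether these shares differ from that of the members was not tested. With the block, edgeR gave CDC6 an adjusted p of 0.11 and called 0 members and 0.0063% of all genes. With the number-2 libraries set aside, edgeR called 0 members and 0.308% of all genes. ORC6, the smallest origin complex subunit, followed a course like that of CDC6, at 65.9, 41.6 and 67.9 CPM in the shJUP libraries against 57.1, 31.2 and 54.1 CPM in the controls (log2 0.30, SE 0.27). ORC1, the subunit whose level rises and falls with the cycle, was at 31.8, 26.2 and 35.7 CPM in the shJUP libraries against 35.7, 20.5 and 29.3 CPM in the controls (log2 0.13, SE 0.22). CDT1, the partner of CDC6 in loading, was nearly level at 19.9, 21.1 and 23.8 CPM in the shJUP libraries against 24.3, 16.9995 and 21.1 CPM in the controls (log2 0.057, SE 0.16). All 4 genes were lowest in shNC 2.

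**Figure D3:**
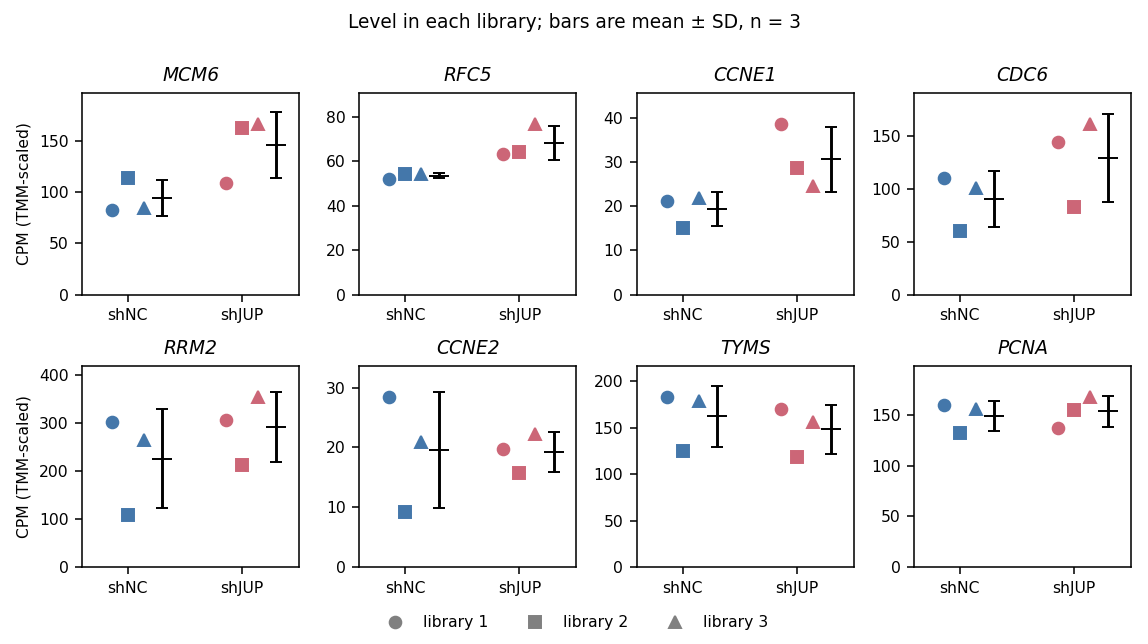
Each panel gives 1 gene in CPM after TMM scaling, with circles, squares and triangles for library numbers 1, 2 and 3 (blue shNC, red shJUP) and a bar for the mean ± SD of 3 libraries. MCM6, CDC6 and CCNE1 lie higher in shJUP within each number. RRM2 and CCNE2 have their lowest point at the shNC 2 square, and PCNA and TYMS overlap throughout.

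The factors that activate the helicase also dipped in shNC 2. CDC45, which joins MCM2-7 and GINS in the active helicase, was at 37.7, 27.9 and 42.3 CPM in the shJUP libraries against 35.6, 18.1 and 32.1 CPM in the controls (log2 0.33, SE 0.27). MCM10, needed for origin firing, was at 59.1, 37.6 and 53.05 CPM in the shJUP libraries against 49.9, 24.9 and 40.8 CPM in the controls (log2 0.37, SE 0.27). In shNC 2 these genes held 0.535 and 0.5496 of the mean of the other controls, and all 6 genes of this role were lowest there. The log2 fold changes of CDC45 and MCM10 were 0.086 and 0.14 without shNC 2, and 0.25 and 0.32 without both number-2 libraries. Within number 1, 2 and 3 the log2 ratio was 0.080, 0.61 and 0.39 for CDC45 and 0.24, 0.58 and 0.37 for MCM10. The GINS subunits differed among themselves: GINS2 (log2 0.27, SE 0.19) and GINS4 (log2 0.26, SE 0.16) lay above 0, GINS1 (log2 0.061, SE 0.22) near it and GINS3 (log2 -0.052, SE 0.15) below it. GINS1 was at 72.8, 66.8 and 77.9 CPM in the shJUP libraries against 86.5, 46.6 and 75.4 CPM in the controls, so that shNC 1 was its highest library. None of the 6 separated the groups.

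For the clamp and its loader the libraries differed less. PCNA was at 137, 155 and 168 CPM in the shJUP libraries against 159, 132 and 156 CPM in the controls (log2 0.040, SE 0.12), a range of 1.27-fold from the lowest to the highest library. RFC5, a small subunit of the clamp loader, stood at 63.2, 64.2 and 76.8 CPM (shJUP 1 to 3) against 52.2, 54.2 and 54.2 CPM (shNC 1 to 3). Its 3 controls lay within 2.14% (coefficient of variation) and all shJUP libraries above them, with log2 0.35, SE 0.11, edgeR adjusted p = 0.43 and a p of 0.017 before adjustment. RFC1, the large subunit, was the opposite case, at 118, 112 and 117 CPM in the shJUP libraries against 128, 123 and 128 CPM in the controls (log2 -0.12, SE 0.091), lower in each shJUP library by a small margin. Subunits RFC2 (log2 0.15, SE 0.12), RFC3 (log2 0.19, SE 0.15) and RFC4 (log2 0.13, SE 0.17) overlapped between the groups and were lowest in shNC 2. RFC5 shares exon sequence with WSB2 on the opposite strand in GENCODE release 29, and reads there cannot be assigned without a stated strand setting.

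The polymerase and fragment-processing genes did not tilt towards shJUP: 3 of 7 lay above 0 (median log2 -0.015). POLA1, the catalytic subunit that extends primers (log2 -0.042, SE 0.14), POLD1 of the lagging-strand polymerase (log2 -0.015, SE 0.12) and POLE of the leading-strand polymerase (log2 0.021, SE 0.21) differed from 0 by less than their SE. POLE was at 94.8, 79.9 and 102 CPM in the shJUP libraries against 114, 64.5 and 94.8 CPM in the controls, again lowest in shNC 2. PRIM1, which makes the RNA primers (log2 0.23, SE 0.15), and POLE2 (log2 0.17, SE 0.22) lay above 0. FEN1, the nuclease that trims Okazaki fragments, was at 137, 119 and 129 CPM in the shJUP libraries against 163, 94.2 and 143 CPM in the controls (log2 -0.059, SE 0.20). LIG1, the ligase that joins them, ran against the other genes, at 60.4, 62.6 and 61.1 CPM in the shJUP libraries against 71.7, 77.2 and 62.1 CPM in the controls (log2 -0.20, SE 0.11): it was highest in shNC 2, and it was lower in shJUP within each number, by log2 -0.25, -0.30 and -0.022.

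Nucleotide supply held the gene with the widest range over the libraries. RRM2, the S-phase subunit of ribonucleotide reductase, stood at 307, 212 and 355 CPM (shJUP 1 to 3) against 303, 109 and 265 CPM (shNC 1 to 3). Its lowest library was shNC 2, with 0.385 of the mean of the other controls, and the highest library held 3.25 times the lowest. Within numbers the ratio of shJUP to shNC was 1.01 (95% counting interval 0.976 to 1.05), 1.94 (95% counting interval 1.84 to 2.05) and 1.34 (95% counting interval 1.29 to 1.39). The fold change (log2 0.37, SE 0.37, edgeR adjusted p = 0.75) was 0.23 without both number-2 libraries and 0.037 without shNC 2 alone. Its partner RRM1 (211, 208 and 255 CPM in the shJUP libraries against 242, 168 and 218 CPM in the controls; log2 0.10, SE 0.16) and TK1, thymidine kinase (75.2, 85.9 and 92.9 CPM in the shJUP libraries against 84.8, 55.2 and 86.1 CPM in the controls; log2 0.17, SE 0.19), dipped less in that library. TYMS, thymidylate synthase, was at 169.9, 119 and 157 CPM in the shJUP libraries against 183, 125 and 178 CPM in the controls (log2 -0.13, SE 0.19) and was lower in shJUP within each number, by log2 -0.11, -0.071 and -0.19. TYMS overlaps ENOSF1 and TYMSOS on the opposite strand, so part of its reads cannot be assigned. In controls, PCNA had the highest level per kilobase of merged exon of the 41 genes (101 ± 10.02 CPM per kb, SD, n = 3). Next came TYMS (65.7 ± 13.1), FEN1 (53.9 ± 14.3) and RRM1 (50.1 ± 9.09), and these 3 did not differ beyond their spread. E2F2 had the lowest level (1.81 ± 0.434). This order depends on the annotated exon lengths.

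All 4 genes for chromatin and histone supply lay above 0 and were lowest in shNC 2. UHRF1, which guides maintenance methylation to newly made DNA, was at 109.6, 90.05 and 139.8 CPM in the shJUP libraries against 109, 68.9 and 109.7 CPM in the controls (log2 0.24, SE 0.23). The large and middle subunits of chromatin assembly factor 1, CHAF1A (90.2, 82.5 and 99.3 CPM in the shJUP libraries against 84.6, 64.1 and 89.99 CPM in the controls; log2 0.19, SE 0.15) and CHAF1B (47.1, 50.9 and 59.9 CPM in the shJUP libraries against 47.6, 40.4 and 49.1 CPM in the controls; log2 0.20, SE 0.13), and SLBP, which binds histone messenger RNA (85.4, 87.7 and 94.5 CPM in the shJUP libraries against 85.0, 73.8 and 86.2 CPM in the controls; log2 0.13, SE 0.11), were highest in shJUP 3. In number 1 these 4 genes were close to level, with a median log2 ratio of 0.0085.

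Of the cyclin E genes, CCNE1 lay above 0 and CCNE2 near 0, and the difference between both was not tested. CCNE1, cyclin E1, stood at 38.7, 28.6 and 24.5 CPM (shJUP 1 to 3) against 21.2, 14.98 and 21.98 CPM (shNC 1 to 3), or a mean of 30.6 ± 7.28 CPM with the JUP hairpin and 19.4 ± 3.84 CPM without (SD, n = 3). Every shJUP library lay above every control, although the gap was small in number 3, where the ratio was 1.12 (95% counting interval 0.974 to 1.28) against 1.82 (95% counting interval 1.61 to 2.07) in number 1 and 1.91 (95% counting interval 1.65 to 2.21) in number 2. Its fold change (log2 0.66, SE 0.22, edgeR adjusted p = 0.44, 0.019 before adjustment) was within the error of that of MCM6, which was the larger of both without the number-2 libraries (MCM6 0.73, CCNE1 0.56), and DESeq2 with the block did not call it (adjusted p = 0.055). The library with most CCNE1, shJUP 1, was not the one with most of the other replication genes. CCNE2, cyclin E2, was at 19.8, 15.7 and 22.2 CPM in the shJUP libraries against 28.5, 9.297 and 20.8 CPM in the controls (log2 -0.022, SE 0.37), with shNC 1 its highest and shNC 2 its lowest library, at 0.377 of the mean of the other controls. E2F1, a transcriptional activator of this programme, was at 52.2, 51.8 and 60.1 CPM in the shJUP libraries against 52.5, 44.1 and 49.9 CPM in the controls (log2 0.16, SE 0.12) and varied little. E2F2, a related activator, was at 6.92, 8.64 and 9.88 CPM in the shJUP libraries against 11.7, 7.17 and 10.7 CPM in the controls (log2 -0.22, SE 0.24).

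**Figure D4:**
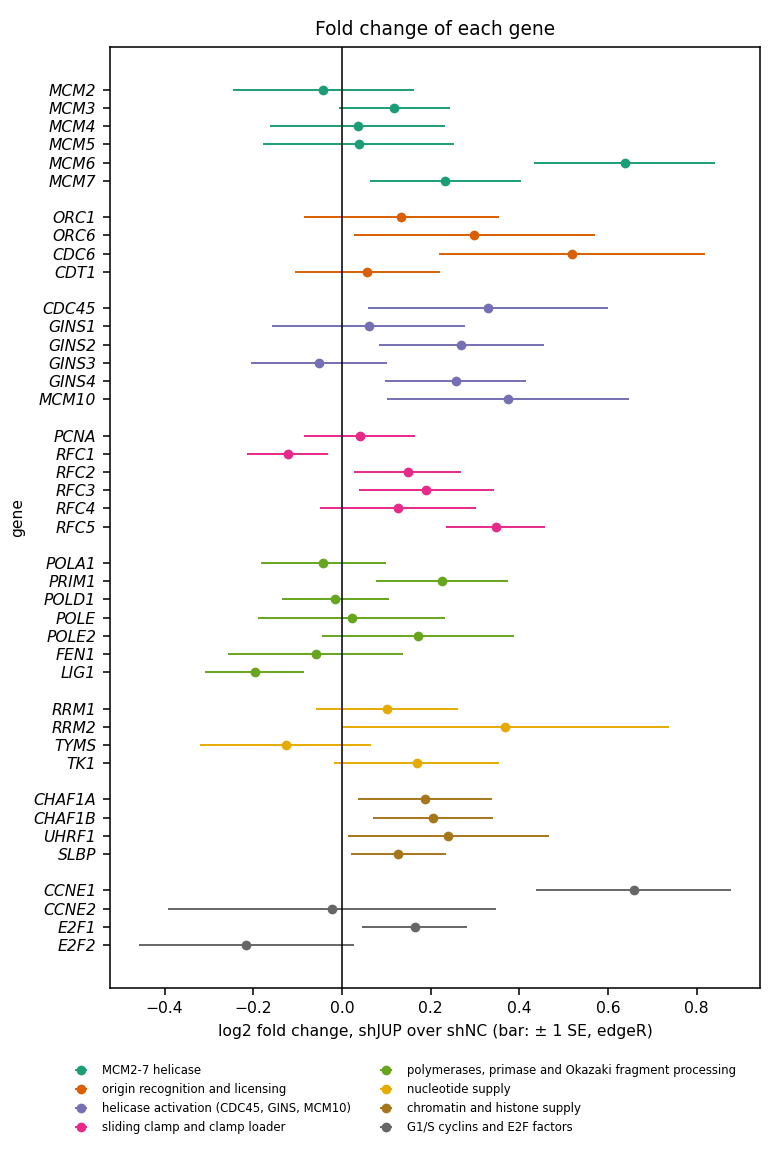
Points are log2 fold changes of shJUP over shNC from edgeR, with bars of 1 SE, for the 41 genes grouped and coloured by role. CCNE1, MCM6 and CDC6 lie furthest to the right, the polymerase genes scatter about 0, and LIG1, E2F2, TYMS and RFC1 lie furthest to the left.

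Other genes of the same processes were read from lists, again without a single edgeR call. Of 16 further origin and firing genes 14 lay above 0 (median log2 0.12), of 23 fork and polymerase genes 15 (0.060), of 17 nucleotide supply genes 10 (0.11), of 16 RB and E2F pathway genes 11 (0.19), of 10 replication-coupled chromatin genes 8 (0.13) and of 16 replication checkpoint genes 13 (0.14). Of 19 G1 cyclins, CDKs and inhibitors 16 were tested and 11 lay above 0 (0.086). Without shNC 2 these medians were -0.038 for the origin, -0.013 for the fork, 0.016 for the nucleotide, 0.090 for the RB, -0.021 for the chromatin, -0.027 for the checkpoint and -0.060 for the G1 cyclin and CDK list. Named after their values were seen, CCND2 and the CDK inhibitors CDKN2A and CDKN2B had 0 counts in each of the 6 libraries, which allows up to 0.159 to 0.167 CPM in a library (3 counts, counting error only). Over the 114 genes tested in these lists DESeq2 called 3 higher and 0 lower (2.63%, against 1.26% of all genes). CDK2, the kinase partner of cyclin E, was at 83.2, 73.3 and 86.6 CPM in the shJUP libraries against 57.7, 46.9 and 56.5 CPM in the controls (log2 0.59, SE 0.12, DESeq2 adjusted p = 0.0096, edgeR 0.33). CDKN1A, the CDK inhibitor p21, was at 23.3, 22.2 and 18.6 CPM in the shJUP libraries against 7.903, 9.03 and 15.4 CPM in the controls (log2 0.99, SE 0.26, DESeq2 adjusted p = 0.045, edgeR 0.40). Its ratio of shJUP to shNC was 2.95, 2.46 and 1.21 in number 1, 2 and 3, and the DESeq2 call was lost with the number-2 libraries set aside (adjusted p = 0.14). RNASEH2A, the catalytic subunit of RNase H2, which removes ribonucleotides from DNA, was at 36.1, 37.8 and 43.5 CPM in the shJUP libraries against 23.5, 24.01 and 26.9 CPM in the controls (log2 0.66, SE 0.13, DESeq2 adjusted p = 0.0038, edgeR 0.33).

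The other genes with the smallest p-values in their lists were not called by DESeq2. They were DONSON (log2 0.27, SE 0.17), a factor of helicase assembly, ORC3 of the origin complex (log2 0.26, SE 0.17), PRIM2, the large primase subunit (log2 0.33, SE 0.14), SHMT1 (log2 0.38, SE 0.11) and DTYMK (log2 0.49, SE 0.17), enzymes of thymidylate supply, the E2F partners TFDP1 (log2 0.29, SE 0.11) and TFDP2 (log2 -0.40, SE 0.16), the histone chaperones NASP (log2 -0.17, SE 0.095) and ASF1B (log2 0.35, SE 0.21), RAD51AP1, a recombination factor (log2 0.50, SE 0.21), and WEE1, a kinase that restrains CDKs (log2 0.21, SE 0.13). TFDP1 and TFDP2 differed in sign, at 173, 143 and 169 CPM in the shJUP libraries against 136, 123 and 137 CPM in the controls for the former and 58.97, 76.98 and 66.9 CPM in the shJUP libraries against 81.4, 107 and 79.4 CPM in the controls for the latter. With the block, DESeq2 called 7 of the 114 genes (6.14%, against 4.36% of all genes). Of these RBL2, an RB family member, was lower (log2 -0.38, DESeq2 adjusted p = 0.031). DTYMK (0.048), the phosphatase CDC25A (0.0051) and the repressor E2F7 (0.018) were higher, beside the 3 genes above. With the number-2 libraries set aside DESeq2 called 3 of the 114 (2.63%, against 4.23% of all genes): CDK2 and RNASEH2A as higher and CDKN1B, the CDK inhibitor p27, as lower (log2 -0.68, DESeq2 adjusted p = 0.0085). CDKN1B lay lower in every shJUP library than in every control. RBL2, CDC25A, E2F7 and CDKN1B are named here after their values were seen.

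Mitosis and G2/M genes, which are expressed later in the cycle, gave the nearest comparison. Of 40 such genes 38 lay above 0, with a median log2 fold change of 0.20. In 7 of the 40 every shJUP library was higher than every control, a larger share than the 8.39% of all genes. Their median deviation in shNC 2 was -0.37, close to the -0.36 of the replication genes, and 34 of the 40 were lowest there. Without that library the median of the mitotic genes was 0.086. Within numbers their median log2 ratio was 0.15, 0.38 and 0.13, against -0.096, 0.31 and 0.22 for the replication genes. In number 1, 27 of the 40 mitotic genes lay above 0, where 15 of the 41 replication genes did. Whether both groups differ in this was not tested. DESeq2 called 2 of the 40 mitotic genes, both higher, against 1.26% of all genes in either direction. PRC1, a spindle midzone protein, was at 206, 205 and 235 CPM in the shJUP libraries against 152, 146 and 167 CPM in the controls (log2 0.47, SE 0.11, DESeq2 adjusted p = 0.017) and BIRC5, survivin, at 174, 138 and 164 CPM in the shJUP libraries against 105, 106 and 120.4 CPM in the controls (log2 0.52, SE 0.13, DESeq2 adjusted p = 0.031), while edgeR gave both an adjusted p of 0.38.

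**Figure D5:**
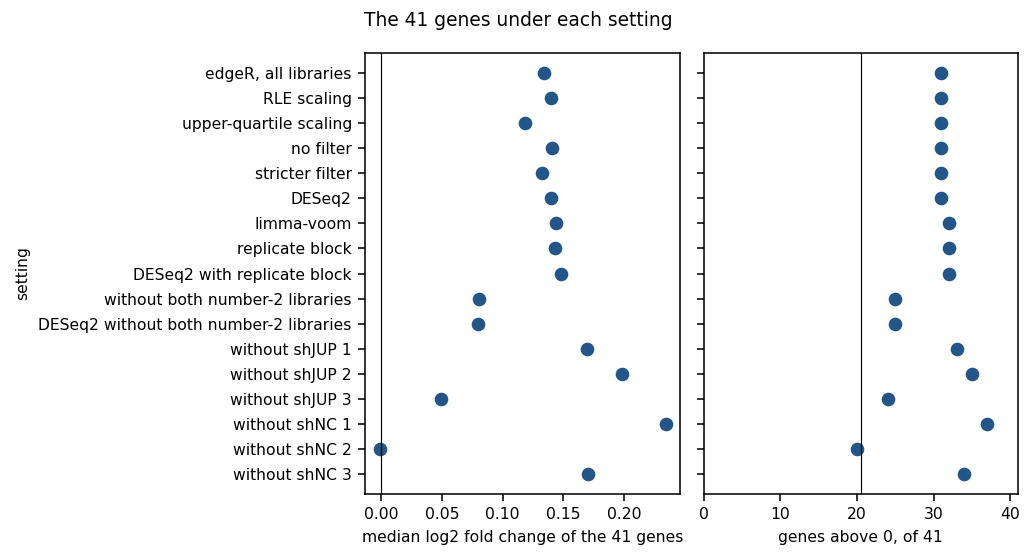
The left panel gives the median log2 fold change of the 41 genes and the right panel how many of them lie above 0, under each of 17 settings. Changes of scaling, filter or test leave both nearly in place (median 0.12 to 0.15), whereas leaving out shNC 2 brings the median to -0.0012 and leaving out shNC 1 to 0.23.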

How the data were processed

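The authors deposited 1 table of expected counts per Ensembl gene, not scaled between libraries, made per the submitters' processing notes with RSEM 1.3.3 and STAR 2.7.9a. Those notes also name edgeR 3.32.1 and DESeq2 1.26.0. Libraries were made from poly(A) RNA and read on a DNBSEQ machine, per the labels' protocols, which also name FPKM values from Cuffdiff that were not used. For build, annotation and strand the entry is: not given in the sources used here. Of 60695 rows, 31 without an Ensembl identifier were dropped. Symbols were matched for 60463 of 60664 IDs. Counts were rounded to whole numbers. Counts were whole in all 6 libraries (within 0.001) for 21 of the 41 genes, and 17 overlap exons of another GENCODE release 29 gene, 14 of them on the opposite strand. The 14 are CCNE2, CHAF1A, FEN1, GINS2, GINS3, GINS4, LIG1, MCM2, MCM7, PRIM1, RFC4, RFC5, RRM1 and TYMS. CHAF1B, POLD1 and RRM2 overlap on the same strand only. How reads in these overlaps were assigned is not known.

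The test was the edgeR 4.0.16 quasi-likelihood test, two-sided (R 4.3.3, filterByExpr, which kept 15867 genes, TMM scaling), with p-values adjusted over all genes by Benjamini-Hochberg and a threshold of 0.05. The SE was taken as the size of the fold change (log2) divided by the root of F. DESeq2 1.42.0 and limma-voom (limma 3.58.1) were alternatives. Ratios within a number used CPM, on the log2 scale with 0.5 added, and exact binomial 95% intervals that cover counting error only. Exon length was that of all exons of a gene in GENCODE release 29, merged over its transcripts, and can exceed the length of the transcript expressed. Steps were tested on simulated data. Library numbers were taken as pairs, since same-numbered libraries deviated together (r = 0.16, 0.56 and 0.25 for number 1, 2 and 3). Deviations were taken from the mean of each group of 3 libraries. The values for numbers 1 and 3 are therefore not independent of that for number 2, and cannot by themselves show a pairing. No label explains the numbers, and shJUP 3 correlated more with shNC 1 (r = 0.44) and shJUP 1 more with shNC 3 (r = 0.18) than with their own number, so calls under the block rest on an uncertain pairing. Replicates differed beyond sampling noise, so all 6 libraries were kept as separate samples. Named genes are all 41 members, JUP, up to 2 genes of each pathway list by p-value and the highest of each marker list. Other markers are named to check the cell type. The members and lists were chosen with earlier results of these data known.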

Additional observations from a re-analysis of the deposited data

How the results depend on the processing

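The call of 0 members held under each edgeR and limma-voom setting tried, with other scalings, no filter, a stricter filter (1 CPM in 3 libraries), the replicate block and each library left out. DESeq2 with the replicate block and DESeq2 without both number-2 libraries called 2 (MCM6 and CDC6). Over all genes the count was 0 and became 5 without a filter, 1 with the replicate block, 49 without both number-2 libraries, 200 with DESeq2, 692 with DESeq2 and the replicate block and 673 when DESeq2 was run on the libraries numbered 1 and 3. JUP was called by DESeq2 under the replicate block (log2 -1.30) and under DESeq2 with the number-2 libraries set aside (log2 -1.66). The replicate block changed no other call of a member. Members at an unadjusted p under 0.05 in edgeR numbered 3, and 1 to 4 with a library left out in turn, lowest without shJUP 3. The cause was not tested.

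None of the members that changed direction had been called. With each library left out in turn their log2 fold changes ranged over MCM2 -0.22 to 0.10, MCM4 -0.14 to 0.20, MCM5 -0.16 to 0.18, ORC1 -0.057 to 0.33, CDT1 -0.069 to 0.18, GINS1 -0.16 to 0.25, GINS3 -0.17 to 0.035, PCNA -0.040 to 0.12, RFC4 -0.030 to 0.24, POLA1 -0.16 to 0.025, POLD1 -0.10 to 0.048, POLE -0.18 to 0.21, POLE2 -0.0017 to 0.30, FEN1 -0.26 to 0.11, RRM1 -0.035 to 0.22, TYMS -0.29 to 0.0097, TK1 -0.013 to 0.28 and CCNE2 -0.36 to 0.35. Without both number-2 libraries edgeR and DESeq2 gave, in that order, MCM4 -0.041 and -0.042, CDT1 -0.042 and -0.043, GINS1 -0.094 and -0.095, PCNA -0.039 and -0.040, POLE -0.071 and -0.072, TK1 -0.014 and -0.015. CCNE2 turned to 0.11 with limma-voom, 0.090 with the replicate block and 0.10 with DESeq2 and the replicate block. With 3 libraries a group, p-values measure the spread between these cultures only.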
